A study of Mus musculus with 42 samples.

Results

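The genes described here encode the ephrins and their Eph receptors, 2 netrins with the receptors DCC, neogenin and UNC5, and the Slits with their Robo receptors. Of the 36 genes listed by symbol, 35 had at least 1 probe set (a group of short probes for 1 transcript) on the mouse MOE430.2 array, 75 probe sets in all, and Ephb2 was not analysed here. They stand among 18194 genes with a probe set of a single symbol. All 35 passed the filter on dim genes, which asked 3 or more arrays to exceed 5 on the log2 scale.

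Expression was measured in Purkinje cells, whose axons carry the output of the cerebellar cortex, at P3 and P7 (P, postnatal day) and at 5 later ages, P14, P21, P28, P35 and P56, and in Stellate/Basket cells, the inhibitory interneurons of the molecular layer, from P14 to P56. Every group came from the cerebellum of male-labelled mice, CB6-Tg(Gad1-EGFP)G42Zjh/J by strain and Gad67-GFP bac transgenic by genotype, and no group lacked the transgene. The transgene marks both cell types with GFP through the promoter of a GABA-synthesis gene, so the cells were told apart by soma size during manual sorting. Slices had been treated with AP5, CNQX and TTX (blockers of glutamate receptors and sodium channels) and with bacterial protease type XIV, and polyadenylated RNA went through 2 rounds of amplification. After 2 columns that equal means of other columns were left out, 40 arrays remained. Purkinje cells had 3 arrays at each of P3, P7 and P14 and 4 at each later age. Stellate/Basket cells had 4, 3, 4, 2 and 2 arrays from P14 to P56. The labels call the arrays of a group biological replicates without naming animals, so p-values measure the spread between these samples. Fewer cells of a type in a sample and less RNA per cell cannot be told apart.

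Ephrins are membrane-bound ligands, held by a lipid anchor in the A class and by a transmembrane stretch in the B class, and Eph receptors are tyrosine kinases that read them at cell contacts and often turn axons away. Netrin-1 is a secreted cue that attracts axons through DCC and repels them through UNC5 receptors, while neogenin is a relative of DCC that also binds repulsive guidance molecules. Slits are secreted proteins that repel axons and dendrites through Robo receptors. In the cerebellum these families are known for migration of newborn neurons, for sorting of afferent axons and for shaping of dendrites.

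The labels were checked against markers, as the mean log2 value of each marker list. In arrays labelled Purkinje, 10 Purkinje markers averaged 7.92 at P3, 9.59 at P7 and between 12.42 and 12.75 from P14 on, while 7 molecular layer interneuron markers averaged 9.57 at P3, 9.54 at P7 and at most 5.79 from P14 on. The lists moved in the same directions with age in arrays labelled Stellate/Basket. Purkinje markers averaged 8.43 at P14, between 9.37 and 10.19 from P21 to P35 and 11.51 at P56. Interneuron markers averaged 10.35 at P14, between 9.27 and 9.83 from P21 to P35 and 5.97 at P56. Purkinje arrays of P3 and P7 and Stellate/Basket arrays of P56 thus stood apart from the other ages of their own label in both lists. Below, the cell type names are those of the labels. For every change or difference that uses these arrays, the part of the cells in the samples was not tested. A list of 12 astrocyte and Bergmann glia markers averaged 7.46 at P14 and between 9.74 and 10.95 later in Stellate/Basket arrays, against 6.62 to 7.60 in Purkinje arrays. All arrays are labelled male, yet Xist, transcribed from the inactive X chromosome, was above 8 in 13 of 25 Purkinje and 14 of 15 Stellate/Basket arrays. At P14 it was at most 5.31 in Purkinje and at least 12.44 in Stellate/Basket arrays. The labels did not overlap either at P21 (at most 11.48 against at least 12.67), P28 (9.56 against 12.09) and P56 (9.99 against 11.18). Xist level and cell type therefore cannot be told apart at these ages, and only at P35 did the labels overlap. Replicates 3 and 4 of Purkinje P28 and replicates 1 and 2 of P35 deviated together from the mean of all Purkinje arrays from P14 on. Their 6 pairs had correlations of 0.50 to 0.84, and pairs of the same age share any effect of that age. Calls that change without these 4 arrays are named below.

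The 250 bases before the start of 5 genes, each called both between the cell types and from P3 to P56 in Purkinje cells, are shown first. They are from RefSeq on GRCm38.p6, and 31 of the 36 genes had one in the set used here, which left out a chromosome. Each is written 5′ to 3′ on the gene's own strand, in lower case, and capitals mark the GC box GGGCGG, searched on both strands (CCGCCC is its complement). Epha5 lies at chr5:84417383-84417632 on the minus strand and Slit2 at chr5:47982905-47983154 on the plus strand, and both were higher in Purkinje cells and rose there. Ntn4 lies at chr10:93640799-93641048 on the plus strand, Neo1 at chr9:59036442-59036691 and Ephb1 at chr9:102354694-102354943 on the minus strand, and these 3 were lower and fell.

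Epha5: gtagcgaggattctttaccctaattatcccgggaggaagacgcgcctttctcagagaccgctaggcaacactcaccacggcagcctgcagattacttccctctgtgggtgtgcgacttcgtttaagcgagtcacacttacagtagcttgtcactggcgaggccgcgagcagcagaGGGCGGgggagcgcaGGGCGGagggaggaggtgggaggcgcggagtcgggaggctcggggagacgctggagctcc
Slit2: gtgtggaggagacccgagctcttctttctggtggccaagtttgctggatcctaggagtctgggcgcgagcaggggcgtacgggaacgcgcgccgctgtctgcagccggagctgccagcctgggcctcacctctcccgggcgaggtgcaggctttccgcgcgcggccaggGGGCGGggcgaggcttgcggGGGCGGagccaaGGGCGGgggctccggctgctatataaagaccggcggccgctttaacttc
Ntn4: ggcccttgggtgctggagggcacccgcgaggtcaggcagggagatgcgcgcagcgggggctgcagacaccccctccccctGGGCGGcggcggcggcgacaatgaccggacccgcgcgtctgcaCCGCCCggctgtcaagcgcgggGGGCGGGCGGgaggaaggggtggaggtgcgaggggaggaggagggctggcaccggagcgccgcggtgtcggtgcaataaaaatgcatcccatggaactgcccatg
Neo1: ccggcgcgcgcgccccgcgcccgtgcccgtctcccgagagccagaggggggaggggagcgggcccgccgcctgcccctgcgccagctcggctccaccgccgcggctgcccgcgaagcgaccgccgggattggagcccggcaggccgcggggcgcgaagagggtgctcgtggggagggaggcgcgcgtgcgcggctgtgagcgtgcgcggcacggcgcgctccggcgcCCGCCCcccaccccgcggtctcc
Ephb1: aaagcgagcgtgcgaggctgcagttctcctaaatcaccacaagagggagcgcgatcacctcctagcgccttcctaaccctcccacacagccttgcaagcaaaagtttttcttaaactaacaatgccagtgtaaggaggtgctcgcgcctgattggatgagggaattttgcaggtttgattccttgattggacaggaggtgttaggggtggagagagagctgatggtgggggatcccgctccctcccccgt

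These 5 windows held 2, 3, 4, 1 and 0 GC boxes in the order shown, and in Ntn4 2 of the matches overlap by 2 bases. GC made up 62.4%, 69.6%, 73.2%, 83.2% and 54.0% of their bases, against a median of 52.4% over 32851 promoters of this length. Among the 31 members with a promoter, 23 held a GC box, compared with 32.7% of all promoters. For the members, 4 of which had more than 1 start, a motif at any start counted, while the shares over all promoters count each promoter by itself. The E-box CANNTG, on either strand, was in 13 of the 31 but in none of the 5 shown, compared with 66.2% of all promoters. The nuclear receptor motif AGGTCA, also searched on both strands, was in 2 of the 31 and, of those shown, once in Ntn4, compared with 14.0% of all promoters. A match describes letters in the window only.

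Between the cell types, some guidance genes differed several-fold and others by little more than 2-fold. Averaged over the 5 shared ages, 12 of the 35 genes (34.3%) were called, 4 higher and 8 lower in Purkinje cells, where 11.5% of all 17478 genes tested were called, 6.37% higher and 5.13% lower. A gene was called when limma's adjusted p was under 0.05 and its log2 difference at least 1, a 2-fold change. Higher in Purkinje cells were the receptor genes Epha5, Unc5d and Epha3 and the ligand gene Slit2. Lower were both netrin genes, the netrin receptor gene Neo1, the ligand genes Efnb2 and Efna2, and the Eph receptor genes Ephb1, Epha8 and Epha10. Over P14 to P35 alone, without the Stellate/Basket arrays of P56, 13 genes were called. The median difference of the members was -0.18, against 0.02 over all genes.

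At single ages, P14 had 14 called members (13.3% of all genes), P21 had 14 (13.5%), P28 had 7 (16.5%), P35 had 11 (11.4%) and P56 had 10 (20.6%). The share of members at P28, 20%, was close to that of all genes. Epha5, Unc5d, Neo1 and Ntn4 were called in the same direction at all 5 ages, and Ephb1 and Ntn1 joined them from P14 to P35. Efnb2 and Slit2 were each called at 4 ages as well, 9 other members at 1 to 3 ages and 18 at none. Without the 4 Purkinje arrays that deviated together, P28 had 9 called members, with Epha8 and Slit2 added, and P35 had 12, with Epha3, Epha6 and Unc5b added and Efna2 (-0.86, adjusted p = 0.0932) and Efnb2 (-0.84, adjusted p = 0.0501) no longer called. Another reading leaves out the Stellate/Basket arrays of P56. It sets the 19 Purkinje arrays of P14 to P56 against the 13 Stellate/Basket arrays of P14 to P35. The arrays did not overlap for 9 members, Epha5 and Unc5d above and Epha8, Ephb1, Efnb2, Efnb3, Ntn1, Ntn4 and Neo1 below, and for 7.46% of all genes. With the Stellate/Basket arrays of P56 included, Epha8, Ephb1, Efnb3, Ntn1 and Ntn4 overlapped, and only Epha5, Unc5d, Efnb2 and Neo1 stayed apart.

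**Figure D1:**
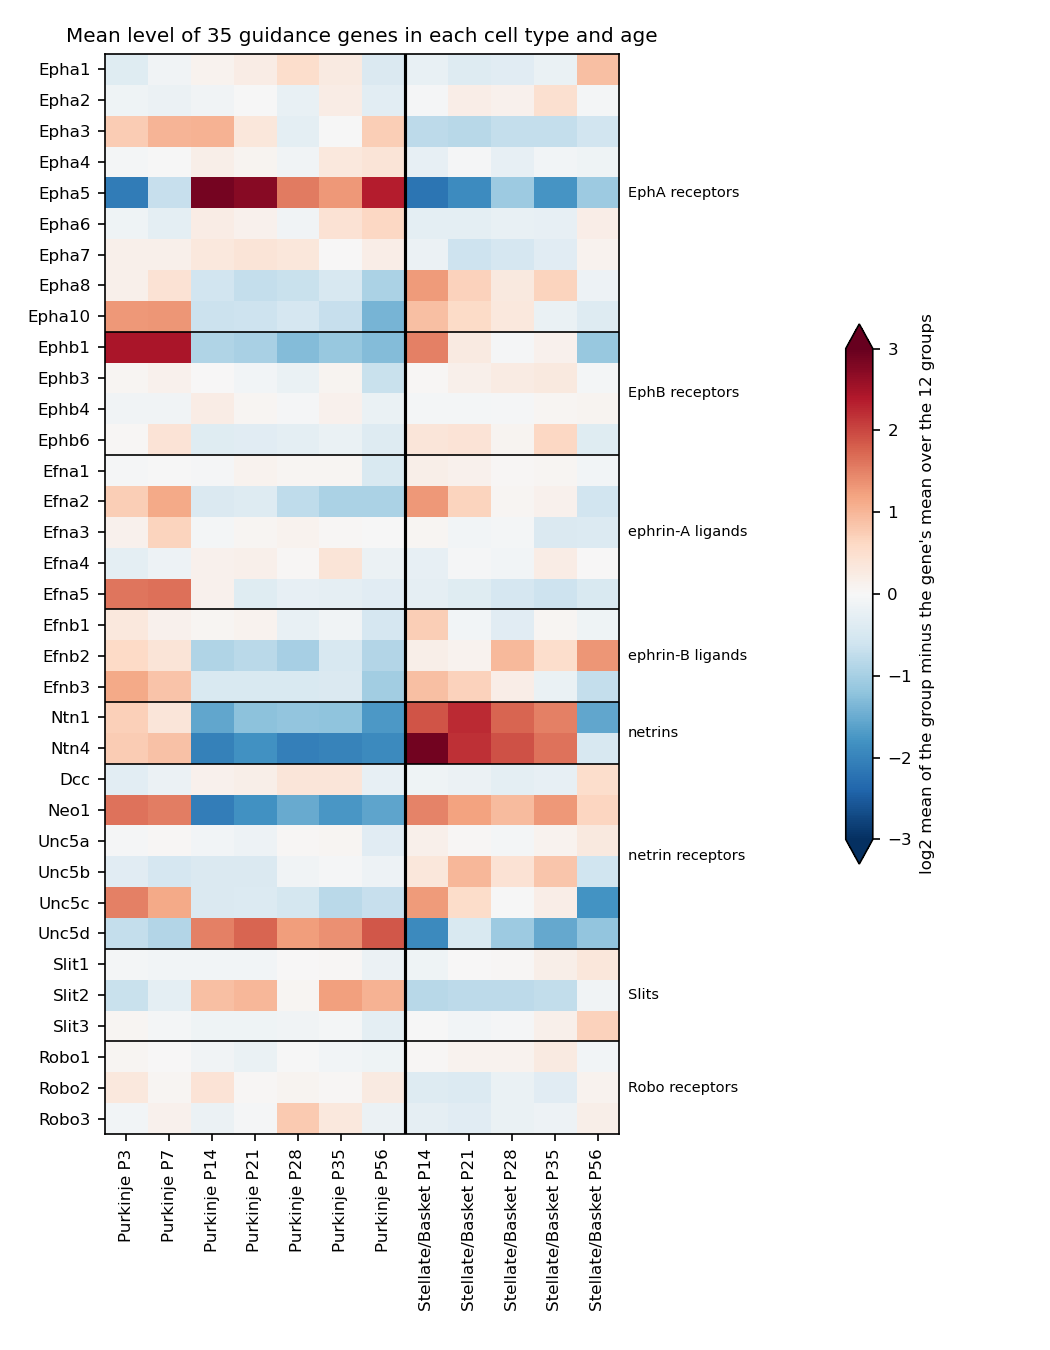
Mean log2 expression of the 35 genes in each cell type and age, each gene shown relative to its own mean over the 12 groups and ordered by role. Neo1, Ntn1, Ntn4 and Ephb1 are high in Purkinje groups at P3 and P7 and in Stellate/Basket groups at P14 and low in Purkinje groups from P14 on, while Epha5 and Unc5d show the opposite.

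Within the Purkinje label, much of the change lay between P7 and P14, and the change from P3 to P7 was not tested. From P3 to P56, 14 members were called, 3 higher and 11 lower, against 16.5% of all genes, 8.71% higher and 7.81% lower. From P7 to P14, which uses other arrays, 14 were called as well, 3 higher and 11 lower, against 12.7% of all genes, 5.79% higher and 6.95% lower. The same 14 genes were called in both. From P14 to P56 limma called 0 of 35 members, with 11 at an unadjusted p under 0.05, while 1.69% of all genes were called. Across P7 to P14 the marker lists moved too, with 8 of 10 Purkinje markers higher and 7 of 7 interneuron markers lower. Of the other lists, 4 of 6 Golgi and unipolar brush cell markers, 4 of 12 astrocyte and Bergmann glia markers and 2 of 7 granule cell markers were lower. In the glial list of 12, 1 marker went the other way. Among 7 oligodendrocyte lineage markers, 1 was higher and 1 lower. The part of this shift in the guidance genes' changes was not tested.

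Among EphA receptors, tyrosine kinases that mainly bind ephrin-A ligands, Epha5 rose and separated the cell types most. In Purkinje cells its probe set 1444690_at gave 6.45, 5.30 and 5.45 at P3, then 6.41, 6.99 and 8.05 at P7, then 10.71, 10.79 and 10.64 at P14. Later Purkinje arrays gave 10.56, 10.92, 10.61 and 10.17 at P21, then 9.74, 10.58, 8.47 and 8.81 at P28, then 8.34, 8.33, 9.70 and 10.21 at P35, then 10.32, 10.06, 9.72 and 10.69 at P56. Stellate/Basket arrays gave 5.59, 5.79, 5.37 and 5.87 at P14, then 5.90, 6.04 and 5.94 at P21, then 6.22, 6.30, 7.54 and 6.93 at P28, then 6.13 and 6.03 at P35, then 6.89 and 6.64 at P56. Every Purkinje array from P14 on lay above every Stellate/Basket array. The cell type difference was 3.76 ± 0.20 (SE, adjusted p = 1.22e-16), 13.6-fold, and the Purkinje rise from P3 to P56 was 4.46 ± 0.43 (SE, adjusted p = 6.2e-10), 22-fold, of which 3.56 ± 0.46 lay between P7 and P14. The 4 Purkinje arrays that deviated together, at 8.33 to 8.81, were the lowest from P14 on, where the other 15 ran from 9.70 to 10.92, and the cell type difference without them was 4.08. The other 3 probe sets of Epha5 were also higher in Purkinje cells, by 3.94 (1437920_at), 2.83 (1435286_at) and 0.87 (1420557_at), the last below the 2-fold threshold.

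Epha8 and Epha10, both receptors of the A class, went the other way. For Epha8, Purkinje arrays gave 8.19, 8.20 and 8.06 at P3, then 8.14, 8.85 and 8.31 at P7, then 7.34, 7.42 and 7.51 at P14. They continued at 7.49, 7.21, 7.23 and 7.15 at P21, then 7.22, 7.28, 7.43 and 7.39 at P28, then 7.45, 7.49, 7.60 and 7.54 at P35, then 7.25, 6.94, 6.94 and 7.04 at P56. In Stellate/Basket cells Epha8 gave 9.23, 9.33, 9.10 and 9.45 at P14, then 8.73, 8.74 and 8.59 at P21, then 8.08, 8.58, 8.15 and 8.33 at P28, then 8.64 and 8.69 at P35, then 7.50 and 8.17 at P56. Epha8 arrays of the Purkinje label from P14 on lay below all Stellate/Basket arrays up to P35. It differed between the cell types by -1.23 ± 0.07 (SE, adjusted p = 1.18e-16) and fell under both labels, at -1.10 ± 0.14 in Purkinje cells from P3 to P56 and -1.44 ± 0.16 in Stellate/Basket cells from P14 to P56. Ending at P35, these changes were -0.63 and -0.61, below the 2-fold threshold.

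Epha10 encodes a receptor whose kinase domain lacks activity. Its Purkinje arrays were 9.37, 9.25 and 8.61 at P3, then 10.33, 8.48 and 8.55 at P7, then 7.18, 7.06 and 7.20 at P14. After P14 they were 7.35, 7.04, 6.99 and 7.30 at P21, then 7.17, 7.36, 7.34 and 7.27 at P28, then 7.29, 7.50, 6.83 and 6.77 at P35, then 6.70, 6.41, 6.35 and 6.09 at P56. The Stellate/Basket arrays were 8.71, 8.58, 8.92 and 8.49 at P14, then 8.64, 8.02 and 8.40 at P21, then 7.84, 8.35, 8.23 and 7.95 at P28, then 7.18 and 8.0 at P35, then 6.99 and 7.82 at P56. All 6 Purkinje arrays of P3 and P7 lay above all later ones. Epha10 fell, with a log2 change of -2.69 ± 0.29 (adjusted p = 6.92e-09) from P3 to P56 in Purkinje cells and of -1.28 ± 0.33 (adjusted p = 0.00291) from P14 to P56 in Stellate/Basket cells. Its cell type difference of -1.01 ± 0.14 lay at the threshold and was -0.98 with arrays centred on their medians. Without P56 replicate 1 its Stellate/Basket change was -0.86 (adjusted p = 0.0979).

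Epha3 was low throughout in Stellate/Basket cells. Purkinje arrays ran from a lowest value of 4.55 through a median of 5.37 to 6.88 from P14 on, and Stellate/Basket arrays up to P35 were at 4.20, 4.45 and 4.58 by the same measures. The highest Stellate/Basket array lay just above the lowest Purkinje array, so the sets overlap slightly. The difference was 1.08 ± 0.14 (SE, adjusted p = 6.21e-08), and Epha3 was called at P14, P21 and P56. With the mean of its probe sets the values were 0.45 over the 5 ages, 0.74 at P14, 0.40 at P21 and 0.49 at P56, all below the 2-fold threshold. In Stellate/Basket cells Epha1 rose from P14 to P56, by 1.11 ± 0.25 (SE, adjusted p = 0.000822), with arrays at 6.36, 6.47, 6.25 and 6.22 at P14 and 6.77 and 8.10 at P56. The Epha1 value ending at P35 was 0.0082, and without P56 replicate 3, at 8.10, the change to P56 was 0.45 (adjusted p = 0.268), so the call rests on that array.

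Epha2, Epha4 and Epha6 were called in no difference through the probe set chosen for each gene, the one with the highest mean, and Epha7 was called at P21 alone, at 1.02 ± 0.15. Other probe sets of Epha4 and Epha7, singled out after their values were seen, did differ. Epha4 encodes a receptor that binds both ephrin classes, and its probe set 1429021_at was at 6.29, 6.57 and 6.48 at P3, 7.16, 7.01 and 6.22 at P14 and 9.44, 7.61, 8.99 and 9.77 at P56 in Purkinje cells. It rose by 2.15 ± 0.41 (SE, adjusted p = 0.000903) from P14 to P56 and was higher in Purkinje cells by 1.83 ± 0.19. The Epha4 probe set chosen for the gene, 1421928_at, stood at 0.21 ± 0.11 over the same ages, which was not called. For Epha7, another ephrin-A receptor, 1452380_at was at 6.71, 6.75 and 6.30 at P14 and 9.03, 7.48, 8.95 and 8.62 at P56 in Purkinje cells, and at 5.42, 5.09, 5.06 and 5.12 and then 5.22 and 5.10 in Stellate/Basket cells. That probe set of Epha7 differed between the cell types by 2.28 ± 0.23 (SE, adjusted p = 4.72e-10) and rose in Purkinje cells by 1.93 ± 0.49 (SE, adjusted p = 0.00868) from P14 to P56.

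**Figure D2:**
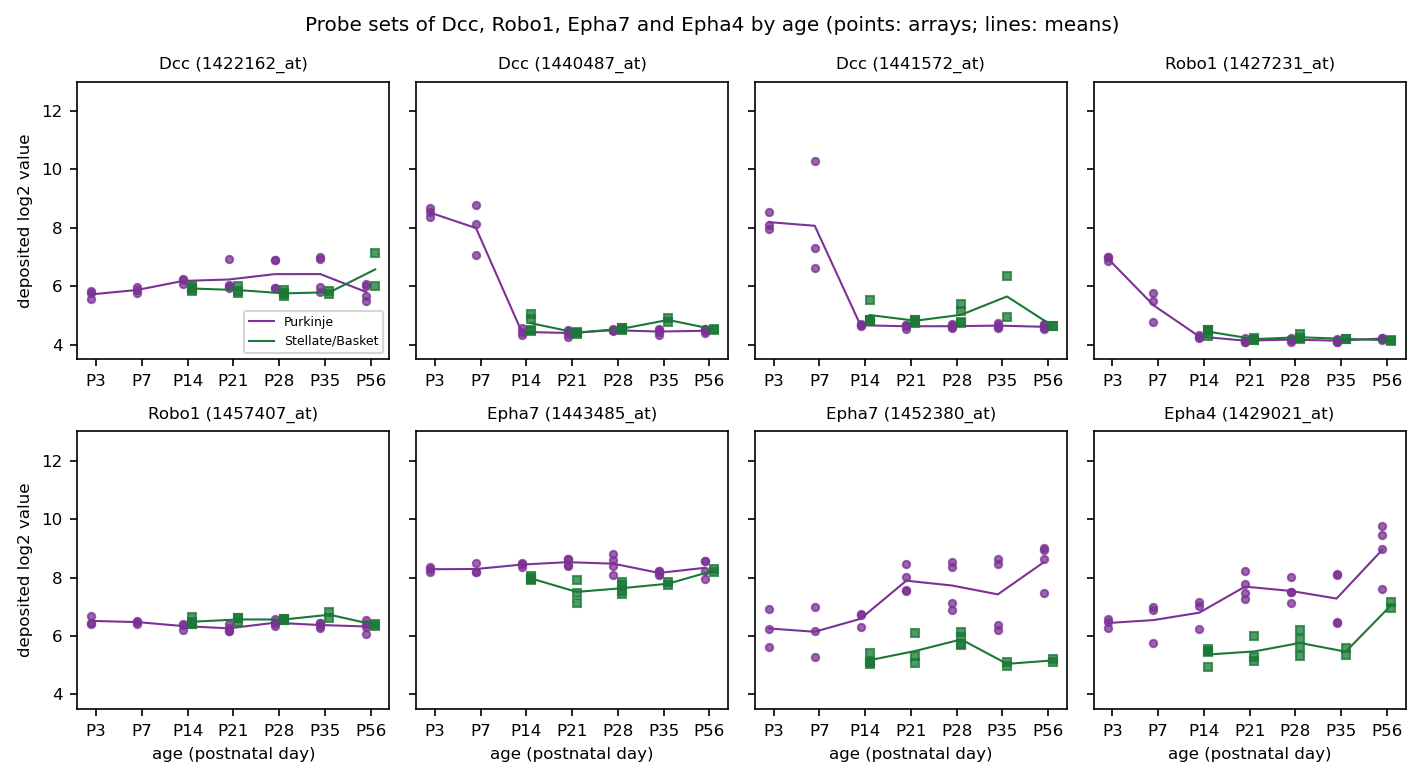
Log2 value of every array against postnatal day for probe sets of Dcc, Robo1, Epha7 and Epha4, with Purkinje and Stellate/Basket arrays in different colours and lines through the group means. Dcc 1440487_at and Robo1 1427231_at are high in Purkinje arrays at P3 and P7 and at most 4.56 and 4.34 from P14 on, while Epha7 1452380_at and Epha4 1429021_at climb after P14.

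Ephb1, a receptor of the B class that binds transmembrane ephrins, had the largest fall from P3 to P56 in Purkinje cells among the chosen probe sets, while from P7 to P14 Neo1 fell further, at -3.62 against -3.35. Its probe set 1455188_at gave 11.13, 10.92 and 11.29 at P3, then 11.35, 10.87 and 11.14 at P7, then 7.78, 7.70 and 7.82 at P14 in Purkinje arrays. The later Purkinje arrays gave 7.46, 8.11, 7.45 and 7.72 at P21, then 6.93, 7.21, 7.70 and 7.62 at P28, then 7.60, 7.59, 7.49 and 7.45 at P35, then 7.26, 7.47, 7.45 and 7.33 at P56. For Stellate/Basket arrays the values were 10.94, 9.72, 10.42 and 9.66 at P14, then 9.20, 8.74 and 8.86 at P21, then 8.86, 8.61, 8.57 and 8.44 at P28, then 8.44 and 9.14 at P35, then 7.49 and 7.58 at P56. The 6 early Purkinje arrays lay at least as high as 10.87 and no later Purkinje array passed 8.11. Ephb1 fell, with a log2 change of -3.74 ± 0.22 (adjusted p = 1.1e-14), 13.3-fold, from P3 to P56 under the Purkinje label and of -2.65 ± 0.25 (adjusted p = 9e-10) from P14 to P56 under the Stellate/Basket label. The cell types differed by -1.27 ± 0.10 (SE, adjusted p = 4.29e-12) on average, from -2.42 at P14 to -0.16 at P56, the last not called. Ephb3 and Ephb4, the receptors of the same class with roles in vessels and epithelia, were called nowhere in the planned differences, and neither was Ephb6, which lacks kinase activity.

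Among the ephrin-A ligands, Efna5 and Efna2 fell in Purkinje cells, Efna5 further from P3 to P56 and Efna2 slightly further from P7 to P14, at -1.58 against -1.50. Purkinje arrays of Efna5 gave 10.77, 10.51 and 10.50 at P3, then 10.23, 10.92 and 10.72 at P7, then 9.28, 8.96 and 9.13 at P14. The following ages gave 8.21, 8.92, 8.54 and 8.82 at P21, then 8.61, 9.20, 8.64 and 8.53 at P28, then 9.06, 9.12, 8.23 and 8.44 at P35, then 8.35, 8.83, 8.92 and 8.5 at P56. Stellate/Basket arrays of Efna5 gave 8.89, 8.49, 8.43 and 9.05 at P14, then 8.55, 8.51 and 8.81 at P21, then 8.87, 8.64, 8.17 and 8.26 at P28, then 7.94 and 8.76 at P35, then 8.93 and 8.14 at P56. The early Purkinje arrays, at 10.23 and above, lay over every other array of either label. Efna5 fell, with a log2 change of -1.94 ± 0.24 (SE, adjusted p = 1.28e-07), 3.84-fold, in Purkinje cells, while its change from P14 to P56 was -0.47 ± 0.24 there and -0.18 ± 0.28 in Stellate/Basket cells, neither called, and these 2 changes did not pass the test of their difference (adjusted p = 0.551). With the mean of its probe sets, the P3 to P56 value of Efna5 was -0.83.

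Efna2 had Purkinje values of 7.18, 7.99 and 7.83 at P3, then 8.58, 8.24 and 7.38 at P7, then 6.32, 6.57 and 6.57 at P14. From P21 the Purkinje arrays were 6.37, 7.0, 6.36 and 6.45 at P21, then 6.87, 6.33, 5.73 and 5.72 at P28, then 5.76, 5.75, 6.24 and 6.15 at P35, then 6.35, 6.22, 6.03 and 5.33 at P56. The Stellate/Basket arrays of Efna2 were 7.96, 8.14, 8.32 and 8.5 at P14, then 7.49, 7.46 and 7.80 at P21, then 6.72, 6.44, 7.42 and 7.40 at P28, then 7.12 and 6.99 at P35, then 6.57 and 6.12 at P56. Efna2 thus fell with age under both labels, with changes of -1.69 ± 0.29 (adjusted p = 1.96e-05) from P3 to P56 in Purkinje cells and of -1.88 ± 0.33 (adjusted p = 3.01e-05) in Stellate/Basket cells, and with the mean of its probe sets at -0.90 and -0.96. Its cell type difference, -1.01 ± 0.13, was -0.88 without the 4 Purkinje arrays that deviated together. Efna1, Efna3 and Efna4, ligands of the same class, were called in none of the planned differences, and their group means spanned 0.63, 1.09 and 0.68.

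Both called ephrin-B ligands fell in Purkinje cells, and they parted in Stellate/Basket cells. Efnb2, known for patterning vessels and axons, gave 8.19, 8.05 and 9.14 at P3, then 8.14, 8.33 and 8.28 at P7, then 7.22, 6.79 and 6.87 at P14 in Purkinje arrays. Older Purkinje arrays gave 6.99, 7.09, 7.09 and 7.06 at P21, then 6.56, 7.15, 7.05 and 6.69 at P28, then 7.16, 7.26, 7.53 and 7.62 at P35, then 7.51, 6.96, 6.56 and 6.93 at P56. In Stellate/Basket cells Efnb2 gave 8.02, 7.84, 8.23 and 8.08 at P14, then 8.04, 8.09 and 7.83 at P21, then 9.12, 8.33, 9.35 and 8.57 at P28, then 8.40 and 8.42 at P35, then 9.02 and 9.35 at P56. The lowest Stellate/Basket array, 7.83, was above the highest Purkinje array from P14 on, 7.62. Efnb2 fell, with a log2 change of -1.47 ± 0.22 (adjusted p = 3.35e-06) in Purkinje cells, rose by 1.14 ± 0.25 (adjusted p = 0.000627) from P14 to P56 in Stellate/Basket cells, and differed between the cell types by -1.44 ± 0.10 on average, lower in Purkinje cells. With the mean of its probe sets these 3 values were -0.63, 0.37 and -0.44, below the 2-fold threshold. The Stellate/Basket change ending at P35 was 0.37, and astrocyte and Bergmann glia markers rose in 11 of 12 cases over P14 to P56 in those cells, whose part in the Efnb2 rise was not tested.

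Efnb3, known as a midline barrier to corticospinal axons, gave 8.31, 8.66 and 8.5 at P3, then 8.44, 8.24 and 7.91 at P7, then 6.89, 6.69 and 7.11 at P14 in Purkinje arrays. Purkinje values went on at 7.09, 6.59, 6.88 and 6.99 at P21, then 7.06, 6.59, 6.86 and 7.05 at P28, then 6.94, 6.90, 6.80 and 6.98 at P35, then 6.31, 6.33, 6.43 and 6.21 at P56. Stellate/Basket values of Efnb3 were 8.22, 8.01, 8.46 and 8.31 at P14, then 8.10, 8.07 and 7.96 at P21, then 7.21, 7.45, 7.63 and 7.93 at P28, then 7.13 and 7.17 at P35, then 6.43 and 6.84 at P56. Every early Purkinje array lay above every later one, and the last ages were lowest under both labels. Efnb3 fell, with a log2 change of -2.17 ± 0.15 (adjusted p = 4.95e-13) in Purkinje and of -1.62 ± 0.17 (adjusted p = 8.75e-09) in Stellate/Basket cells. Efnb1, the third ligand of this class, was called in none of the planned differences, with a Purkinje P3 to P56 value of -0.81 ± 0.20.

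Both netrin genes were lower in Purkinje cells from P14 to P35. Ntn1, the founding netrin, gave 8.41, 7.56 and 8.15 at P3, then 6.81, 8.69 and 7.59 at P7, then 5.83, 5.56 and 5.93 at P14 in Purkinje arrays. Purkinje arrays of the later ages were 6.70, 5.97, 5.59 and 6.13 at P21, then 5.81, 5.92, 6.39 and 6.47 at P28, then 6.53, 6.27, 5.81 and 5.84 at P35, then 5.71, 5.47, 5.57 and 5.62 at P56. Stellate/Basket arrays of Ntn1 were 9.43, 8.99, 9.25 and 9.18 at P14, then 9.11, 9.94 and 9.63 at P21, then 8.92, 8.95, 9.25 and 9.20 at P28, then 8.43 and 9.25 at P35, then 5.47 and 6.04 at P56. Up to P35 all Stellate/Basket arrays, at 8.43 and above, lay over all Purkinje arrays of P14 and later, at 6.70 and below, and at P56 the labels overlapped. The difference was -2.54 ± 0.14 (SE, adjusted p = 2.23e-16), 5.84-fold, over the 5 ages, and -0.16 at P56. Ntn1 fell, with a log2 change of -2.45 ± 0.30 (adjusted p = 7.2e-08) from P3 to P56 in Purkinje cells. Under the Stellate/Basket label it fell, with a log2 change of -3.08 ± 0.39 (adjusted p = 1.12e-06) from P35 to P56 and of -3.46 ± 0.34 over P14 to P56, but the change from P14 to P35 was -0.37 (adjusted p = 0.542). With limma fitted to the P35 and P56 groups alone, the change from P35 to P56 had an adjusted p of 0.212. Interneuron markers averaged 5.97 in the Stellate/Basket arrays of P56, and the part of that in these falls was not tested.

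Ntn4, a netrin of basement membranes, gave 8.24, 8.81 and 8.30 at P3, then 7.79, 8.98 and 8.95 at P7, then 5.65, 5.70 and 5.65 at P14 in Purkinje arrays. After that the Purkinje arrays were 5.64, 6.30, 5.57 and 5.96 at P21, then 5.65, 5.92, 5.39 and 5.62 at P28, then 5.64, 5.43, 5.62 and 6.03 at P35, then 5.82, 6.03, 5.68 and 5.61 at P56. The Stellate/Basket arrays of Ntn4 were 10.71, 10.47, 10.59 and 10.59 at P14, then 10.05, 9.97 and 9.63 at P21, then 10.06, 9.43, 9.65 and 9.30 at P28, then 8.68 and 9.95 at P35, then 9.06 and 5.35 at P56. Purkinje arrays of P14 and later, at most 6.30, lay below every Stellate/Basket array but 1 of P56. The average difference was -3.59 ± 0.20 (SE, adjusted p = 5.21e-16), 12-fold, and Ntn4 fell, with a log2 change of -2.67 ± 0.44 (adjusted p = 1.09e-05) from P3 to P56 in Purkinje cells. At P56 the difference was -1.42 ± 0.50 (SE, adjusted p = 0.0197), with Stellate/Basket arrays at 9.06 and 5.35, and it was 0.44 without the first of these. From P14 to P56 Ntn4 fell, with a log2 change of -3.39 ± 0.50 in Stellate/Basket cells, and to P35 its change was -1.27 (adjusted p = 0.0923).

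**Figure D3:**
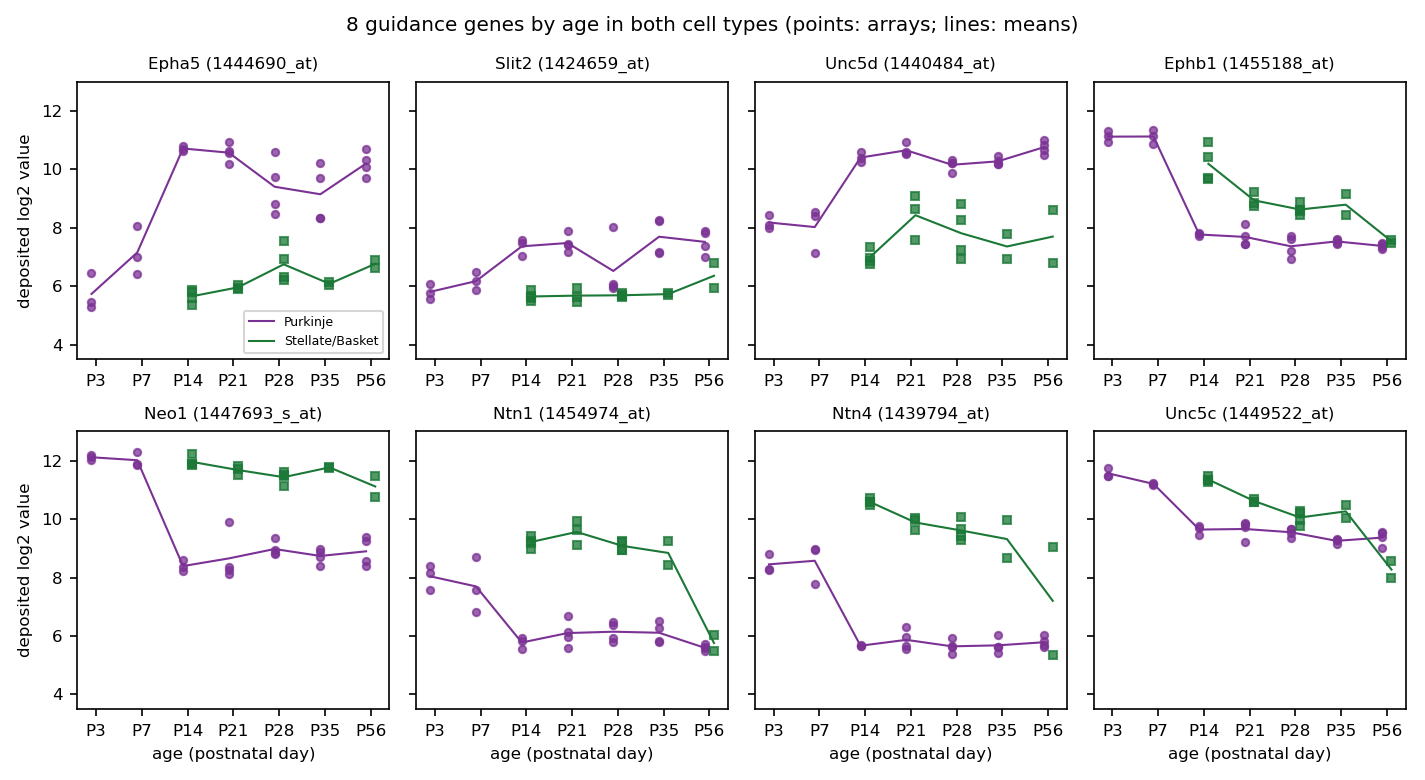
Log2 value of every array against postnatal day for Epha5, Slit2, Unc5d, Ephb1, Neo1, Ntn1, Ntn4 and Unc5c, with Purkinje and Stellate/Basket arrays in different colours and lines through the group means. Epha5 and Unc5d rise in Purkinje arrays between P7 and P14, and Ephb1, Neo1, Ntn1, Ntn4 and Unc5c fall there. Ntn1 in Stellate/Basket arrays drops to 5.47 and 6.04 at P56.

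Among netrin receptors, Neo1 and Unc5d moved in opposite directions. Neo1, which encodes neogenin, gave 12.20, 12.13 and 12.01 at P3, then 12.29, 11.88 and 11.86 at P7, then 8.24, 8.58 and 8.35 at P14 in Purkinje arrays of probe set 1447693_s_at. It then gave 8.11, 9.91, 8.24 and 8.35 at P21, then 8.93, 9.36, 8.82 and 8.79 at P28, then 8.98, 8.87, 8.41 and 8.70 at P35, then 9.24, 8.58, 9.38 and 8.38 at P56. In Stellate/Basket arrays Neo1 stayed between 10.75 and 12.22, at 11.90, 11.83, 12.22 and 11.87 at P14, then 11.81, 11.72 and 11.51 at P21, then 11.61, 11.52, 11.12 and 11.47 at P28, then 11.79 and 11.74 at P35, then 11.48 and 10.75 at P56. All Stellate/Basket arrays lay above all Purkinje arrays of P14 and later, P56 included. The difference was -2.86 ± 0.13 (SE, adjusted p = 2.01e-18), 7.25-fold, and Neo1 fell, with a log2 change of -3.22 ± 0.28 (adjusted p = 5.42e-11) from P3 to P56 in Purkinje cells. Probe set 1434931_at of Neo1 was likewise lower in Purkinje cells, at -1.73 ± 0.08, and fell, with a log2 change of -1.91 ± 0.19 (SE, adjusted p = 1.55e-09) from P14 to P56 in Stellate/Basket cells, where 1447693_s_at stood at -0.84 ± 0.32, which was not called, and 1447694_x_at rose by 1.37. From P3 to P56 in Purkinje cells 1434931_at fell as well, with a log2 change of -2.95 ± 0.16, while 1447694_x_at stood at 0.95 ± 0.17 (SE, adjusted p = 4.61e-05), below the 2-fold threshold. The probe sets of Neo1 therefore disagree in sign for both changes.

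Unc5d, a repulsive netrin receptor that also binds FLRT proteins, gave 8.0, 8.09 and 8.44 at P3, then 8.40, 7.13 and 8.54 at P7, then 10.39, 10.58 and 10.23 at P14 in Purkinje arrays. Its later Purkinje arrays were 10.52, 10.92, 10.55 and 10.60 at P21, then 10.31, 10.20, 9.87 and 10.23 at P28, then 10.17, 10.17, 10.29 and 10.45 at P35, then 11.01, 10.50, 10.82 and 10.67 at P56. Its Stellate/Basket arrays were 6.87, 6.76, 6.96 and 7.33 at P14, then 9.07, 7.58 and 8.63 at P21, then 6.93, 7.23, 8.82 and 8.26 at P28, then 6.94 and 7.78 at P35, then 8.61 and 6.78 at P56. From P14 on the lowest Purkinje array, 9.87, was above the highest Stellate/Basket array, 9.07. The difference was 2.79 ± 0.18 (SE, adjusted p = 8.19e-15), 6.91-fold, and Unc5d rose by 2.57 ± 0.38 (SE, adjusted p = 2.02e-06), 5.95-fold, from P3 to P56 in Purkinje cells.

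Unc5c, known from mutant mice with misplaced cerebellar cells, fell under both labels. Purkinje arrays of Unc5c gave 11.48, 11.74 and 11.48 at P3, then 11.19, 11.18 and 11.25 at P7, then 9.47, 9.75 and 9.71 at P14. They stayed lower at 9.23, 9.87, 9.72 and 9.82 at P21, then 9.66, 9.67, 9.35 and 9.52 at P28, then 9.31, 9.28, 9.14 and 9.29 at P35, then 9.53, 9.38, 9.54 and 9.01 at P56. Stellate/Basket arrays of Unc5c gave 11.33, 11.27, 11.47 and 11.33 at P14, then 10.57, 10.59 and 10.68 at P21, then 9.76, 10.26, 9.98 and 10.20 at P28, then 10.05 and 10.48 at P35, then 8.56 and 7.98 at P56. Its Stellate/Basket arrays were above the Purkinje arrays at P14 and below them at P56. Unc5c fell, with a log2 change of -2.20 ± 0.15 (adjusted p = 2.58e-13) under the Purkinje label from P3 to P56 and of -3.08 ± 0.17 (adjusted p = 7.05e-15) under the Stellate/Basket label from P14 to P56. Interneuron markers were at 10.35 and 5.97 in the Stellate/Basket arrays of P14 and P56, and the part of that in the fall was not tested. The cell type difference was -1.71 ± 0.15 at P14 and 1.09 ± 0.17 at P56, the only member called in opposite directions at 2 ages, and the most variable probe set of Unc5c gave -0.076 at P56.

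Unc5b, a receptor known from vessels, was lower in Purkinje cells at P21, at -1.42 ± 0.20, and Unc5a was called in none of the planned differences. Dcc encodes the attractive netrin receptor, and its 3 probe sets disagreed. The chosen one, 1422162_at, was between 5.49 and 7.15 on all arrays. Probe set 1440487_at of Dcc, singled out after its values were seen, gave 8.35, 8.52 and 8.67 at P3, then 8.77, 8.13 and 7.06 at P7 in Purkinje arrays, then 4.27, 4.48 and 4.56 as the lowest, median and highest from P14 on. It fell, with a log2 change of -4.04 ± 0.20 (SE, adjusted p = 8.33e-17) from P3 to P56, and the third, 1441572_at, fell, with a log2 change of -3.58 ± 0.42. In Stellate/Basket arrays of P14 the Dcc probe set 1440487_at was at 4.87, 4.48, 5.06 and 4.51, so the difference between Purkinje P3 and Stellate/Basket P14 arrays was 3.78 ± 0.20 (SE, adjusted p = 2.31e-15). In this Dcc probe set all 6 early Purkinje arrays lay above every Stellate/Basket array.

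Slit2, a secreted repellent, was the only Slit gene called. Purkinje arrays of Slit2 gave 6.09, 5.76 and 5.57 at P3, then 6.17, 5.86 and 6.49 at P7, then 7.59, 7.03 and 7.46 at P14. Those that followed gave 7.88, 7.44, 7.17 and 7.41 at P21, then 5.94, 8.04, 6.01 and 6.09 at P28, then 7.16, 7.14, 8.25 and 8.21 at P35, then 7.88, 7.80, 6.99 and 7.39 at P56. Stellate/Basket arrays of Slit2 gave 5.86, 5.58, 5.49 and 5.65 at P14, then 5.62, 5.46 and 5.94 at P21, then 5.76, 5.70, 5.62 and 5.67 at P28, then 5.76 and 5.69 at P35, then 6.79 and 5.92 at P56. At P28, 3 of 4 Purkinje arrays, at 5.94, 6.01 and 6.09, were close to the Stellate/Basket arrays, at most 5.76 at that age, and the age was the only shared one at which Slit2 was not called. Of these 3, 2 belong to the 4 Purkinje arrays that deviated together, and without those 4 arrays Slit2 was called at P28, at 1.30 ± 0.34 (SE, adjusted p = 0.0032). The average difference was 1.49 ± 0.16 (SE, adjusted p = 1.65e-09), 2.82-fold, and Slit2 rose by 1.71 ± 0.34 (SE, adjusted p = 0.000179) from P3 to P56 in Purkinje cells. With the mean of its probe sets these values were 0.63 and 0.70, below the 2-fold threshold.

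Slit1, Slit3, Robo1, Robo2 and Robo3 were called in none of the planned differences through their chosen probe sets. The group means of the 3 Robo genes, which encode Slit receptors, spanned 0.47, 0.82 and 1.12. In Robo3, the 4 Purkinje arrays that deviated together, at 6.54 to 6.76, lay above the other 15 of P14 and later, at most 6.45. Robo1 had another probe set, 1427231_at, singled out after its values were seen. In Purkinje cells it gave 6.85, 7.0 and 7.0 at P3, then 5.75, 5.51 and 4.78 at P7, and 4.08, 4.19 and 4.34 as the lowest, median and highest from P14 on. This probe set of Robo1 fell, with a log2 change of -2.74 ± 0.12 (SE, adjusted p = 4.89e-18) from P3 to P56 and was 2.51 ± 0.12 higher in Purkinje P3 than in Stellate/Basket P14 arrays. A further Robo1 probe set, 1445549_at, fell, with a log2 change of -1.12 ± 0.15, and the chosen one, 1457407_at, gave -0.19 ± 0.10, not called.

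**Figure D4:**
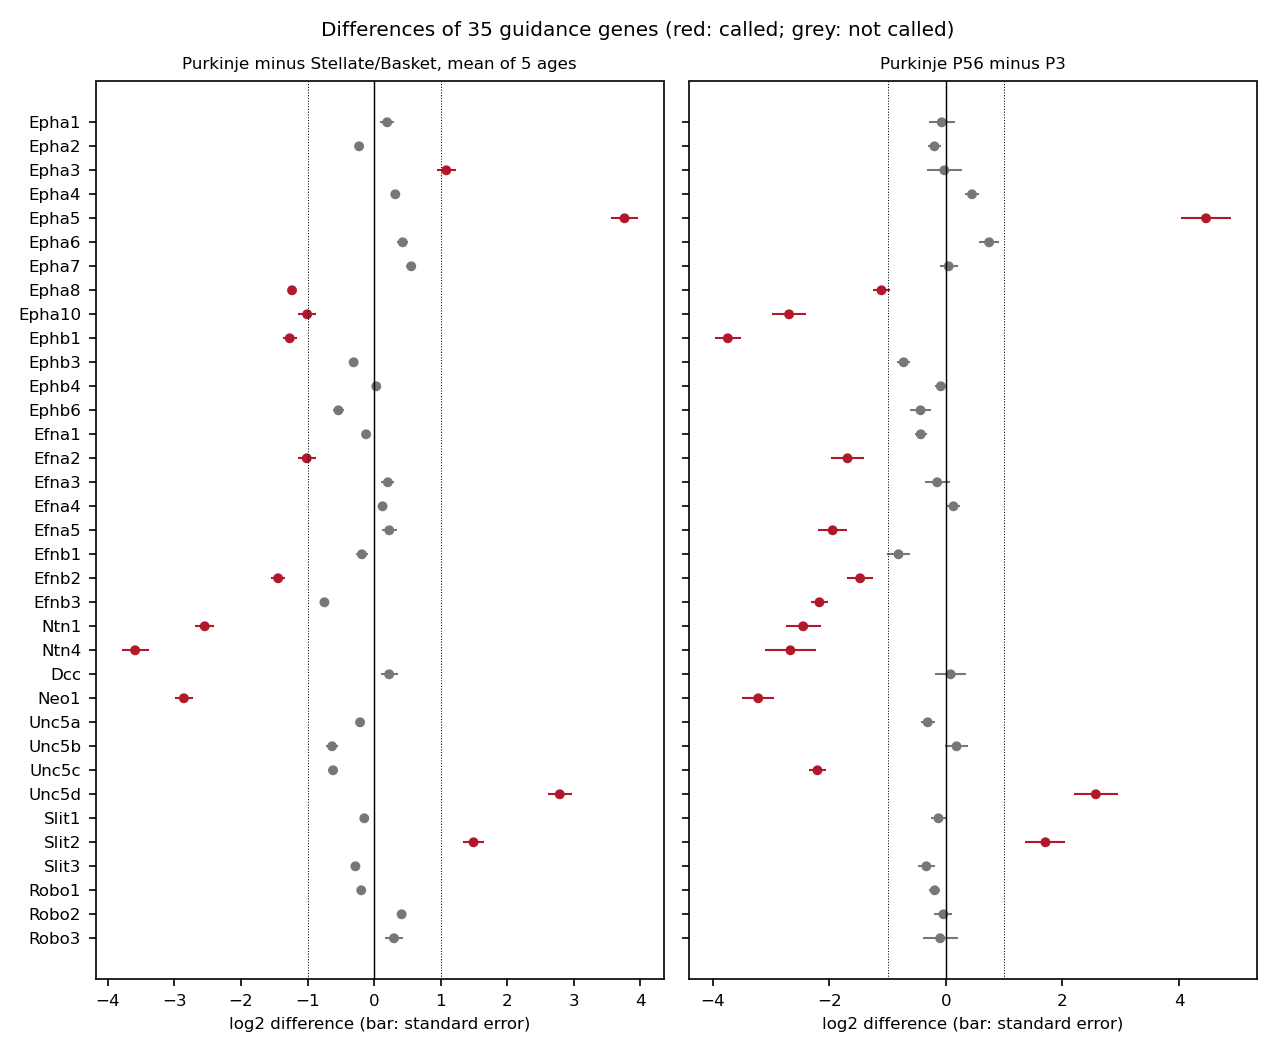
Log2 difference of each of the 35 genes, with bars for 1 SE, between Purkinje and Stellate/Basket cells over the 5 shared ages and between P3 and P56 in Purkinje cells, with called genes in red. Epha5 has the highest value in both panels, at 3.76 and 4.46, and Ntn4 and Ephb1 the lowest, at -3.59 and -3.74.

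In Stellate/Basket cells from P14 to P56, 10 members were called, 2 higher (Efnb2 and Epha1) and 8 lower, where 18.7% of all genes were called, 6.47% higher and 12.3% lower. The largest falls were those of Ntn1, Ntn4, Unc5c and Ephb1. These arrays are the ones in which 7 of 10 Purkinje markers were higher and 7 of 7 interneuron markers lower at P56 than at P14, and the part of that in the members' values was not tested. Ending at P35, 5 members were called, while from P35 to P56, a comparison chosen after the values were seen, 7 were called, 1 higher and 6 lower, against 11.6% of all genes, 4.57% higher and 6.99% lower. Ephb6, Unc5b and Epha1 were among them, at -1.0, -1.45 and 1.10. Without P35 replicate 1 Ephb6 was at -0.66, and without P56 replicate 3 Epha1 was at 0.44 and Ntn4 at -0.26, none of them called. With limma fitted to the P35 and P56 groups alone, 4 arrays, 0 members were called.

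The change from P14 to P56 differed between the cell types for 12 members, 9 with the Purkinje change above the Stellate/Basket change and 3 below, against 20.1% of all genes, 13% above and 7.04% below. All genes were shifted by a median of -0.15 in this comparison. Ntn4, Ntn1, Unc5c and Ephb1 led, at 3.5 ± 0.66, 3.27 ± 0.45, 2.80 ± 0.23 and 2.26 ± 0.34, and each fell in Stellate/Basket cells and stood at 0.12, -0.18, -0.28 and -0.39 in Purkinje cells. With P35 as the last age, 2 members were called, so this comparison too rests on the P56 arrays. Without Stellate/Basket P56 replicate 3 Ntn4 was at 1.65, below the other 3 genes, and without replicate 1 at 5.36. Without the 4 Purkinje arrays that deviated together Epha5 was called too, at -1.62 (adjusted p = 0.0112), as was its Stellate/Basket change of 1.11 (adjusted p = 0.0189). F tests over age, which ask whether any age differs, were passed by 27 members in Purkinje cells (56.3% of all genes) and by 18 in Stellate/Basket cells (40.5%).

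Because interneuron markers were high in Purkinje arrays of P3, those arrays were also set against Stellate/Basket arrays of P14, a comparison chosen after the values were seen. It called 5 members, 2 higher and 3 lower, against 4.03% of all genes, 2.36% higher and 1.68% lower. In the same comparison 4 of 6 Golgi and unipolar brush cell markers were higher, 1 of 7 interneuron markers was higher and 3 lower, and 1 of 10 Purkinje markers was higher and 3 lower, and their part in the members' values was not tested. Efna5 was higher by 1.88 ± 0.24 (SE, adjusted p = 1.27e-06) and Epha3 by 1.54 ± 0.30 (SE, adjusted p = 0.000561). Ntn4, Ntn1 and Epha8 were lower, at -2.14 ± 0.44, -1.17 ± 0.30 and -1.13 ± 0.14. Without Purkinje P3 replicate 2 Ntn1 was at -0.93 (adjusted p = 0.115). Neo1 and Epha5 differed by 0.16 and 0.08, neither called.

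Of 18 measured pathway partners at the cell surface, 0 were higher and 3 lower in Purkinje cells over the 5 ages (16.7%, against 11.5% of all genes): Adgrl3 (-2.52), a receptor of FLRT proteins, Flrt2 (-1.73), an UNC5 ligand, and Adam10 (-1.35), a protease that cuts ephrins. From P3 to P56 in Purkinje cells 0 rose and 5 fell (27.8%, against 16.5% of all genes), among them Flrt2 at -4.23, Adgrl3 at -2.95 and Rgma, a neogenin ligand, at -1.36. Of 39 intracellular effectors, 7 were higher and 6 lower between the cell types (33.3%). The exchange factor Kalrn and the Rac regulator Chn1, which act below Eph receptors, were higher, at 4.37 and 3.37, and the actin regulator Enah and the exchange factor Tiam1 were lower, at -3.39 and -2.50. In Purkinje cells from P3 to P56 6 effectors rose and 7 fell (33.3%), with Kalrn at 4.42, Chn1 at 4.13, Enah at -3.28 and the kinase Pak3 at -3.17, and from P14 to P56 limma called 0 partners and 0 effectors. In Stellate/Basket cells from P14 to P56 the partners gave 0 higher and 2 lower (11.1%, below the 18.7% of all genes) and the effectors 5 higher and 10 lower (38.5%).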

How the data were processed

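Purkinje and Stellate/Basket cells were profiled on Affymetrix MOE430.2 arrays. Each probe set carries a log2 value that the authors normalized before deposit. GCRMA and R 2.9.1 are listed in the submitters' processing notes, with roles not given in the sources used here. The values ran from 3.94 to 14.6 and array medians from 5.91 to 6.16, with no detection calls, so folds against low values are uncertain, and precision is set by how many arrays a group holds. Of 42 columns, Stellate/Basket P35 replicate 3 and P56 replicate 2 equalled the mean of 2 others within 1e-08 and were left out.

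Of 45101 probe sets, 34958 carried 1 symbol in GEO's platform annotation, 932 several and 9211 none, and those with 1 were used. For a gene with several, the probe set of highest mean over the arrays stood for it, and 17478 of 18194 genes passed the filter. limma 3.58.1, run in R 4.3.3, fitted 1 mean for each of 12 groups, with moderated variances and Benjamini-Hochberg adjustment over all genes, and a probe set other than a gene's chosen one in a fit of all probe sets. Differences are Purkinje minus Stellate/Basket, or later minus earlier. The procedure was tested on simulated data. Tables and figures used Python 3.11.15, pandas 2.3.3 and matplotlib 3.10.9.

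The members, the pathway and marker lists and the comparisons were chosen with earlier results of these data known. Every array is given for the 14 members with the largest called difference between the cell types, from P3 to P56 in Purkinje cells or from P14 to P56 in either, and up to 4 called genes for each pathway list. Alternatives covered the filter, probe set, variance model, array weights, replicate number, scaling, thresholds, arrays in the fit, last age and each array in turn. The level of Xist as a covariate, leaving out 4 Purkinje arrays and 2 comparisons were added after the values were seen.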

Additional observations from a re-analysis of the deposited data

Results flagged for a closer look

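In 84 groups of 4 arrays of the members named with every array, 6 arrays stood further from the rest of their group than Dixon's test allows, where chance gives about 1 in 20 groups. Neo1 was at 9.91 in Purkinje P21 replicate 2, with the next array at 8.35, and Efna2 at 7.00 in the same array, with the next at 6.45. Slit2 was at 8.04 in Purkinje P28 replicate 2, with the next at 6.09, and Efna5 at 9.20 there, with the next at 8.64. Neo1 was at 12.22 in Stellate/Basket P14 replicate 3, with the next at 11.90, and Unc5c at 9.14 in Purkinje P35 replicate 3, with the next at 9.28.

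For 12 members the change from P14 to P56 differed between the cell types in limma's test of the difference, given here as the Purkinje change minus the Stellate/Basket change. The value was 3.5 for Ntn4 (0.12 in Purkinje and -3.39 in Stellate/Basket cells), 3.27 for Ntn1 (-0.18 and -3.46), 2.80 for Unc5c (-0.28 and -3.08) and 2.26 for Ephb1 (-0.39 and -2.65). It was 1.38 for Efna2 (-0.51 and -1.88), 1.34 for Neo1 (0.50 and -0.84), 1.23 for Unc5b (0.28 and -0.95), 1.06 for Epha8 (-0.38 and -1.44) and 1.04 for Efnb3 (-0.58 and -1.62). Values below 0 were those of Epha1 at -1.65 (-0.54 and 1.11), Efnb2 at -1.12 (0.03 and 1.14) and Dcc at -1.03 (-0.38 and 0.65). Without Stellate/Basket P56 replicate 3 the value was 1.65 for Ntn4, and it was no longer called for Dcc (-0.46), Epha1 (-0.99), Efnb2 (-0.95), Efna2 (1.15) and Neo1 (0.98). Without replicate 1 the values of Efnb3 (0.84), Epha8 (0.72) and Unc5b (0.996) lay below the 2-fold threshold. Dcc also lost its call in limma's test without any 1 of several arrays of other groups, among them Purkinje P3 replicate 3 (adjusted p = 0.0511). Purkinje markers were higher in 7 of 10 cases and interneuron markers lower in 7 of 7 in the Stellate/Basket arrays of P56 against P14, and their part in these values was not tested.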

How the results depend on the processing

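Counts of called members were recomputed under 17 other settings and without each array in turn. The 130 called member values were recomputed likewise, except with no minimum fold and at a log2 difference of at least 1.5. Of these 130, 63 were called in the same direction under every setting that gave a value. Of 7068 recomputed values, 6838 kept direction and call, 223 were no longer called and 7 changed sign. Of 843 recomputed counts, 810 were within 1.5 times of the first. Many of these fits left out an array of a group outside the comparison, which cannot change a difference, only its adjusted p. The totals therefore include many outcomes nearly fixed in advance and do not measure how stable the values are. With no minimum fold, called members numbered 27 over the 5 ages, 22 at P14, 20 at P28, 18 at P56, 4 in Purkinje cells and 18 in Stellate/Basket cells from P14 to P56, 19 for the difference of these changes and 8 for Purkinje P3 against Stellate/Basket P14. At a log2 difference of at least 1.5 they were 5 over the 5 ages, 6 at P21, 6 at P35, 4 at P56, 6 in Stellate/Basket cells from P14 to P56, 5 for the difference of changes, 3 for Purkinje P3 against Stellate/Basket P14 and 3 from P35 to P56. With the mean of probe sets there were 5 at P56, 7 for the difference of changes and 4 from P35 to P56. Array quality weights gave 6 at P56, 6 in Stellate/Basket cells from P14 to P56, 6 for the difference of changes and 2 from P35 to P56. The compared groups alone gave 5 at P56 and 0 from P35 to P56, with fewer arrays in the fit. The most variable probe set gave 1 in Purkinje cells from P14 to P56 and 8 for Purkinje P3 against Stellate/Basket P14, and testing every probe set gave 3 in Purkinje cells from P14 to P56. With P35 as the last age there were 5 in Stellate/Basket cells, 2 for the difference of changes and 9 in the F test of Stellate/Basket ages.

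Values that changed sign were Dcc in the difference of changes, at 0.25 with the most variable probe set and 0.36 with P35 last, and with P35 last Efnb2 (0.063), Epha1 (0.16) and Unc5b (-0.088) in the same comparison. The others were Unc5c at P56, at -0.076 with the most variable probe set, and Ntn4 at P56, at 0.44 without Stellate/Basket P56 replicate 1 and -3.27 without replicate 3, its value running between these. Apart from the probe sets and arrays named, the cause was not tested. Without 1 array, counts ran from 10 to 12 over the 5 ages, 6 to 12 at P56, 14 to 14 from P3 to P56, 12 to 15 from P7 to P14, 0 to 0 in Purkinje and 10 to 12 in Stellate/Basket cells from P14 to P56, and 7 to 13 for the difference of changes. The lowest at P56 and for the difference of changes came without Stellate/Basket P56 replicate 3.

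Samples of different groups that share a replicate number had a median correlation of -0.0043 over 191 pairs, with 37 over 0.1. Those with different numbers had a median of -0.0018 over 539 pairs, with 99 over 0.1, so sharing a number made little difference. With a replicate block the counts were 11 over the 5 ages, 14 from P3 to P56, 0 in Purkinje and 10 in Stellate/Basket cells from P14 to P56 and 10 for the difference of changes, and 5 of the 130 values were no longer called. Of the 130 calls, the mean of probe sets ended 46, array quality weights 23 and the compared groups alone 14. Median centring and quantile normalization ended 8 each, Xist as a covariate 7 and leaving out the 4 Purkinje arrays that deviated together 3. P35 as the last age ended 16, but it covered only the average over ages, the changes to P56 from P3 or P14 and the difference of changes. Calls ended with Xist were Slit2 at P56 (0.93) and from P7 to P14 (0.89), Efnb2 at P14 (-0.93) and P35 (-0.99) and Epha7 at P21 (0.98). The others were Epha8 from P7 to P14 (-0.98) and Ephb6 from Stellate/Basket P35 to P56 (-0.996). Leaving out Stellate/Basket P56 replicate 3 ended 14, the most for a single array. Quantile normalization moved the share of called genes that were higher from 71.7% to 56.1% at P56 and from 64.9% to 52.7% in the difference of changes, and median centring moved it from 77% to 88.4% in Purkinje cells from P14 to P56.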
